A study of Mus musculus with 8 samples.

Results

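The genes described here are Trp53, which encodes the tumour suppressor p53, and 8 genes known as its transcriptional targets or partners in growth arrest, stress response and apoptosis: Mdm2, Ccng1, Btg2, Gadd45a, Trp53inp1, Sesn1, Sesn2 and Bax. They were chosen by name. Probes were assigned to them through the RefSeq accession on the array, and they account for 9 of the 26464 genes and unnamed transcripts tested. The 9 genes carried 10 probes, 2 of them for Trp53inp1, and every probe was well above background on 8 of 8 arrays.

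p53 is a transcription factor that is kept scarce in unstressed cells because Mdm2, an E3 ubiquitin ligase, marks it for degradation. Stress stabilises the protein, which then binds DNA as a tetramer and raises the transcription of genes that halt the cell cycle, repair DNA or start apoptosis. Control of p53 acts largely on the protein, so the level of Trp53 RNA and the activity of p53 are separate quantities, and only RNA was measured here. In preadipocyte cultures the growth arrest at confluence and the return to the cell cycle after induction are steps on the way to the fat cell.

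The RNA came from 3T3-L1 cells, a mouse preadipocyte line whose confluent cultures respond to hormones by turning into fat cells. Unmodified cells (WT) were compared with cells stably transfected with shRNA-8 against the long noncoding RNA slincRAD (sh8), each at days -2, 0, +2 and +4. Day 0 is confluence, and from then on the medium held 0.5 mM isobutylmethylxanthine, 1 µM dexamethasone and 167 nM insulin. The arrays of days -2 and 0 were therefore from cells before the hormones in both lines, and those of days +2 and +4 from cells after them. The sh8 cells carry the shRNA on all 4 days. No control shRNA line was compared, and slincRAD itself was not analysed here. Whether sh8 is 1 clone or a pool is not stated in the labels.

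Each line and day gave 1 Agilent one-colour array, so there were 8 arrays and no replicate of any line and day. A value below is the log2 of the processed intensity minus the 75th percentile of that array, so 0 is the level of that percentile. The percentile itself ran from 761 to 1242 intensity units, and the share of probes well above background from 64.9% to 81.7%. Saturated spots numbered 0. Precision is limited by how few arrays there are. Lines were compared with limma over all 8 arrays with day as a block, which leaves 3 residual degrees of freedom, and a change is written as log2 ± its standard error with a p adjusted by Benjamini-Hochberg over all 26464 genes (threshold 0.05). Nothing in the labels names separate cultures, so these p-values measure how far a difference between lines varied over the days, or a difference between days over the lines, and that spread may be partly technical. The file headers put days -2 and 0 in 1 scan and days +2 and +4 in another, so day +2 against day 0 cannot be told apart from the scan. Of 10 fat cell markers, 6 to 7 were well above background on the arrays of the first scan and 10 on those of the second. Fabp4 (1.39 to 5.18) and Lpl (2.83 to 5.29) were well above background on all 8 arrays, and Adipoq and Cfd on none of the first scan. Preadipocyte markers were well above background on every array (8 of 8 genes).

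The promoters are shown because p53 acts through sites in its target genes. In the RefSeq windows of assembly GRCm38.p6, which run from 250 bases before to 50 bases after a start, 8 of the 9 genes were found, with 9 windows since Sesn1 has a pair of starts, and Trp53inp1 was not in the table. A match to the p53 half-site consensus, 10 bases long and searched on both strands, lay in 6 of those 9 windows, against 8.36% of all 32851 windows in the table. The 60 bases around each match are given 5′ to 3′ on the gene's strand, with the match in capitals.
Trp53 (chr11:69580259-69580318, plus strand): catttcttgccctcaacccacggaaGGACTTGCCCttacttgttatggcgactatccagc
Mdm2 (chr10:117710910-117710969, minus strand): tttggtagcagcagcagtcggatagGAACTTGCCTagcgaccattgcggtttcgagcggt
Ccng1 (chr11:40755437-40755496, minus strand): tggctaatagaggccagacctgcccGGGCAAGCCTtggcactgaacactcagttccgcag
Gadd45a (chr6:67037413-67037472, minus strand): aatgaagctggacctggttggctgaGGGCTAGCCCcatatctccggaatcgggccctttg
Sesn1 (chr10:41887241-41887300, plus strand): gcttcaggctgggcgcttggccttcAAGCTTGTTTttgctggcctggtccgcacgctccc
Bax (chr7:45467065-45467124, minus strand): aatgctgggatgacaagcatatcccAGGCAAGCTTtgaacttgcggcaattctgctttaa
The match began 75 bases before the start in Trp53, 186 in Mdm2, 185 in Ccng1, 40 in Gadd45a, 173 in Sesn1 and 201 in Bax. The windows of Btg2 and Sesn2 held no match, which says only that these letters are not in those 300 bases. A match is a run of letters and no measure of binding, and no binding was measured here.

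The first question was whether the 9 genes differed between sh8 and WT cells. Btg2 was higher in sh8 and Trp53inp1 was lower, and the other 7 genes did not pass the test. That is 2 of 9 genes, beside 27.1% of all genes tested (16.8% higher and 10.3% lower). At an unadjusted p under 0.05 it was 3 of 9, beside 43.8% of all genes. The median difference of the 9 genes was -0.13, while that of all genes was 0.13 in the higher direction. With quantile normalization the median of all genes was 0.02, and the split of all calls moved from 4438 higher and 2723 lower to 2642 higher and 2570 lower. Differences of the 9 genes are therefore also given against the median of all genes where they passed.

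Some markers of cell types also differed between the lines, not all in the same direction. The summed linear level of 10 fat cell markers was 36.4 to 69.6 on the WT arrays and 12.1 to 26.7 on the sh8 arrays. Most of these sums came from Fabp4 and Lpl, the brightest of the list on every array. The median log2 level of the list was -4.70, -4.68, -4.15 and -2.33 in WT cells at days -2, 0, +2 and +4. In sh8 cells it was -4.53, -4.37, -3.63 and -3.59, higher than in WT on every day but day +4. By the same test 3 of the 10 (Fabp4, Lpl and Pparg) were lower in sh8 and 0 higher, beside 10.3% and 16.8% of all genes. The other 7 did not pass, and Cidec, Cebpa and Lipe among them had positive differences of 0.80, 0.37 and 0.28. The dimmer second probe of Cidec, well above background on 4 arrays, gave -1.54. For the 9 macrophage markers measured, the sum was 5.84 to 6.60 in WT and 7.98 to 9.02 in sh8, with 6 higher and 0 lower in sh8. Of 8 preadipocyte markers 2 were higher and 2 lower in sh8, and of 10 lung epithelium markers 2 were higher and 1 lower. The part of all these markers in the values of the 9 genes was not tested. In RNA from a whole culture, fewer cells of a type and less RNA per cell cannot be told apart.

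**Figure D1:**
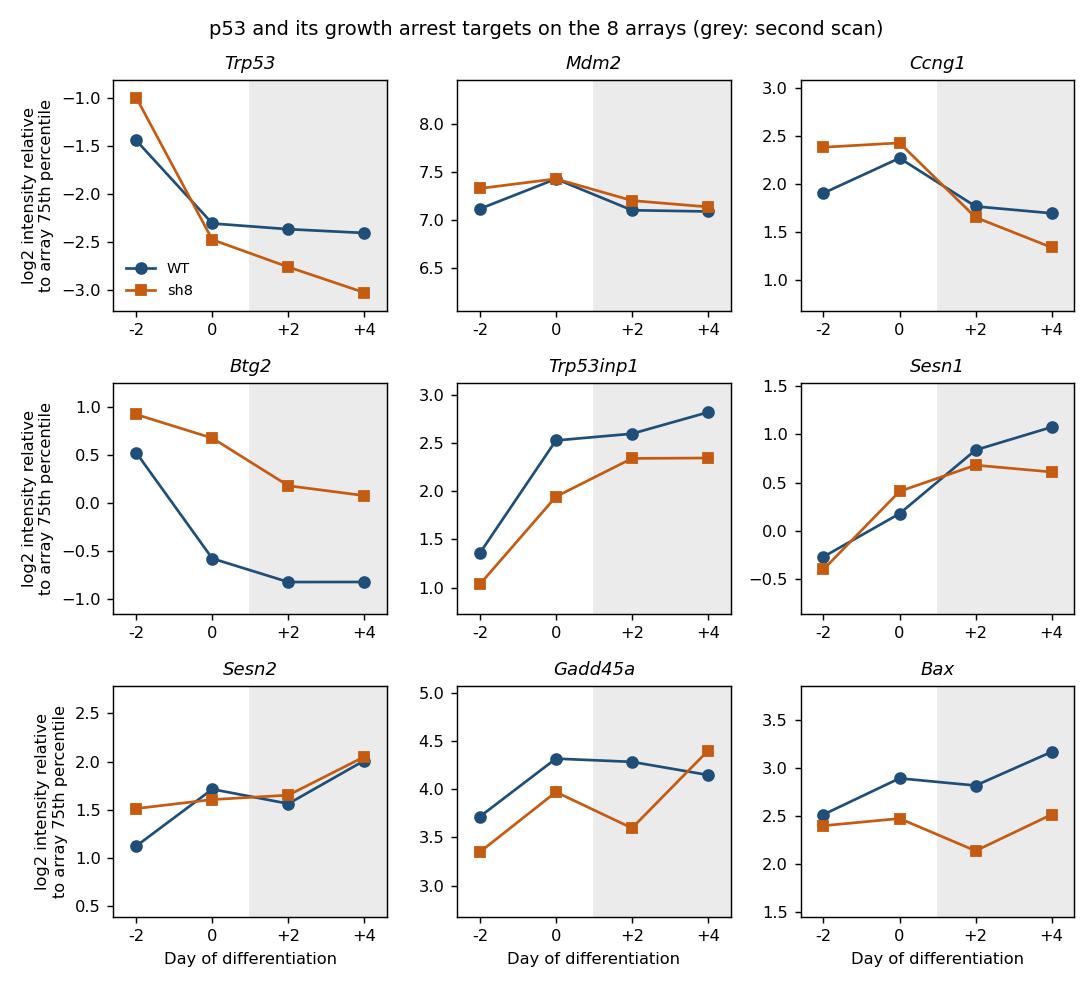
Log2 level of each of the 9 genes relative to the array's 75th percentile (vertical axis, own scale in each panel) at days -2, 0, +2 and +4 (horizontal axis) in WT (circles) and sh8 (squares) cells, 1 array per point, with the second scan shaded grey. Btg2 lay higher in sh8 on all 4 days, Trp53inp1 and Bax lay lower on all 4 days, and Mdm2 stayed between 7.09 and 7.43 on every array.

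Trp53 was lower from day 0 on than at day -2, and from day 0 on lower in sh8 than in WT. The step from day -2 to day 0 and the line difference over all days did not pass the test. With day -2 left out, the line difference was -0.39 and did not pass either (adjusted p = 0.118, limma). In WT cells its log2 level was -1.44, -2.31, -2.37 and -2.41 at days -2, 0, +2 and +4. In sh8 cells it was -1.0, -2.48, -2.76 and -3.03 on the same days. Day -2 was the highest point of both lines and day +4 the lowest, and the ranges of the lines overlapped. The sh8 minus WT difference went from 0.44 at day -2 through -0.17 and -0.39 to -0.62 at day +4. Over all days it was -0.18 ± 0.20 (adjusted p = 0.504, limma), with a 95% interval from -0.69 to 0.32.

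Mdm2, the ligase that degrades p53 and is itself induced by it, was the most even of the 9 genes across arrays. WT cells had log2 levels of 7.12, 7.43, 7.10 and 7.09 at days -2, 0, +2 and +4, and sh8 cells 7.33, 7.43, 7.20 and 7.14. Day 0 was the highest point in both lines, but with quantile normalization the change from day -2 to day 0 turned to -0.12. Its 1 probe was bright, with intensities from 107095 to 188433, and no spot of any array was flagged as saturated. Whether the evenness came from a signal near the top of the range, or from RNA other than Mdm2, was not tested. The difference between the lines was 0.090 ± 0.091 (adjusted p = 0.478, limma), and its 95% interval ran from -0.14 to 0.32.

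Of the growth arrest genes, Btg2 differed most between the lines. Btg2 is an antiproliferative protein of the BTG/TOB family that slows the passage from G1 to S phase. In WT cells its log2 level was 0.52, -0.58, -0.82 and -0.82 at days -2, 0, +2 and +4. In sh8 cells the levels were 0.92, 0.68, 0.18 and 0.08. Only WT at day -2 reached into the sh8 range, and the other 3 WT arrays lay below every sh8 array. The sh8 minus WT difference was 0.40, 1.25, 1.00 and 0.90 on the 4 days, and over all days 0.89 ± 0.16, or 1.85-fold (adjusted p = 0.0241, limma), which is 0.75 above the median of all genes. It was the only one of the 9 genes whose lines differed by at least 1 on a single day, at days 0 and +2. On those days 11.8% and 19.6% of the genes compared did so, and at days -2 and +4 the shares were 10.3% and 14.8%. The Btg2 call was lost without day 0 (adjusted p = 0.0843), without day +2 (0.0832) and without day +4 (0.0948), and on the first scan alone (0.183).

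Ccng1 encodes cyclin G1, which recruits a phosphatase to Mdm2. Its log2 level was 1.90, 2.27, 1.77 and 1.69 in WT cells and 2.38, 2.43, 1.65 and 1.34 in sh8 cells at days -2, 0, +2 and +4. The sh8 arrays were the higher ones before induction and the lower ones after it, with differences of 0.48, 0.16, -0.11 and -0.36. Averaged over the days the difference was 0.041 ± 0.16 (adjusted p = 0.862, limma), and it turned to -0.033 with normexp background correction.

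Gadd45a, a stress protein that binds PCNA and takes part in G2 arrest, had log2 levels of 3.72, 4.32, 4.29 and 4.15 in WT cells. In sh8 cells they were 3.35, 3.97, 3.60 and 4.40. The sh8 arrays were lower on the first 3 days and higher at day +4, with differences of -0.37, -0.35, -0.69 and 0.25. The fit gave -0.29 ± 0.17 (adjusted p = 0.259, limma).

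Cdkn1a, the p21 inhibitor that carries out much of the G1 arrest by p53, is not among the 9 genes and is given for comparison. Its log2 level was 0.38, 0.93, 0.73 and 0.77 in WT cells and 1.26, 1.42, 1.18 and 1.16 in sh8 cells, so that the ranges did not overlap. The 4 daily differences were 0.88, 0.49, 0.45 and 0.39. Its dimmer second probe, also well above background on 8 of 8 arrays, differed by 0.15, 0.61, -0.19 and -0.12, with ranges that overlapped and a mean of 0.11. The call of the brighter probe (adjusted p = 0.0331, limma) was lost when its probes were averaged (0.105), when any 1 day was left out (0.0641 to 0.102) and within either scan (0.136 and 0.0952).

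Trp53inp1 was lower in sh8 on all 4 days and, in both lines, lowest at day -2. It encodes a nuclear protein that promotes p53 phosphorylation and also takes part in autophagy. Its brighter probe read 1.36, 2.53, 2.60 and 2.82 on the log2 scale in WT cells at days -2, 0, +2 and +4. In sh8 cells that probe read 1.03, 1.94, 2.34 and 2.35. In each line day -2 was the lowest array and day +4 the highest, and the ranges of the lines overlapped. The differences were -0.32, -0.58, -0.26 and -0.48, and the fit gave -0.41 ± 0.10, or 1.33-fold lower (adjusted p = 0.0425, limma), which is -0.54 against the median of all genes. The dimmer second probe, between -3.67 and -2.60 on the 8 arrays, was also lowest at day -2 and highest at day +4 in both lines, but differed by only -0.0057 between the lines.

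The Trp53inp1 call held with normexp background correction (adjusted p = 0.0222, limma) and with the filter at all 8 arrays (0.0219), and was lost in the other fits. The adjusted p from limma was 0.10 with quantile normalization, 0.0993 with the authors' values, 0.0633 with no filter on dim probes, 0.126 with the mean of its probes and 0.352 with the scan as the block in place of the day. It was 0.0816 to 0.146 with 1 array left out, 0.159 on the first scan alone and 0.136 on the second.

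The sestrins, Sesn1 and Sesn2, are stress proteins that bind GATOR2 and restrain mTORC1. Sesn1 had log2 levels of -0.27, 0.18, 0.84 and 1.08 in WT cells and -0.40, 0.41, 0.68 and 0.61 in sh8 cells. The highest WT array was day +4 and the highest sh8 array day +2. Its difference between the lines was -0.13, 0.23, -0.16 and -0.47 by day, and -0.13 ± 0.14 over all days (adjusted p = 0.502, limma).

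Sesn2 had log2 levels of 1.12, 1.71, 1.56 and 2.01 in WT cells and 1.51, 1.61, 1.65 and 2.05 in sh8 cells. Day -2 was its lowest array and day +4 its highest in each line. The lines differed by 0.39 at day -2 and by -0.11, 0.09 and 0.04 later, which gave 0.10 ± 0.12 over all days (adjusted p = 0.529, limma). The 95% interval of that difference ran from -0.20 to 0.40.

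Bax, the pore-forming protein of mitochondrial apoptosis, was the only one of the 9 genes whose ranges in the lines did not overlap, beside 17.3% of all genes tested. Its log2 level was 2.52, 2.89, 2.82 and 3.17 in WT cells and 2.40, 2.47, 2.14 and 2.52 in sh8 cells, so that the lowest WT array and the highest sh8 array were equal to 2 decimals. The differences were -0.12, -0.42, -0.68 and -0.65. The fit gave -0.47 ± 0.13 (adjusted p = 0.0568, limma), just outside the threshold. It passed with normexp background correction (0.0208) and when only probes well above background on all 8 arrays were tested (0.0314).

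**Figure D2:**
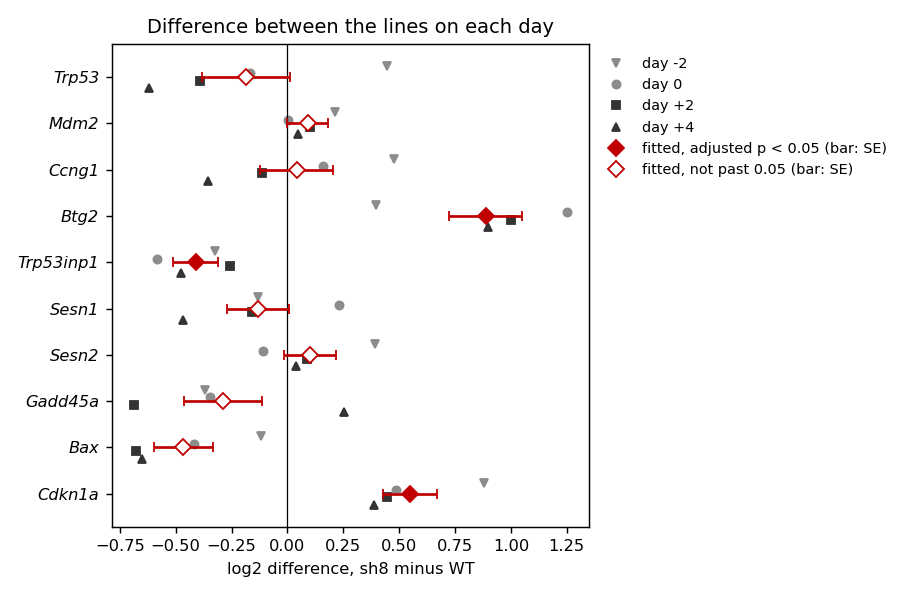
Difference between sh8 and WT (horizontal axis, log2) for the 9 genes and Cdkn1a (vertical axis), as the limma estimate with its standard error (diamonds, filled where the adjusted p passed) and as the 4 daily differences (grey and black symbols). The filled diamonds are Btg2 (0.89), Trp53inp1 (-0.41) and Cdkn1a (0.55), whose daily differences all lie on 1 side of 0, as do those of Bax (-0.47), which did not pass.

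By sign alone, 4 of the 9 genes kept the same sign on all 4 days, beside 52.7% of all genes. Mdm2 and Btg2 were higher in sh8 throughout (2 of 9, beside 32.3%), although Mdm2 differed by only 0.00071 at day 0. Trp53inp1 and Bax were lower throughout (2 of 9, beside 20.4%). With 9 genes, 1 gene more or fewer moves such a share by more than its gap to the share of all genes.

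The second question was how the 9 genes differed from 1 day to the next. From day -2 to day 0, the approach to confluence, all 9 genes had a change of the same sign in both lines, beside 75.3% of all genes. None of the 9 passed limma's adjusted test, nor did any of the 26464 genes (0%), while 4 of the 9 had an unadjusted p under 0.05, beside 25.4% of all genes. Trp53inp1 had the largest positive change, 1.04 ± 0.14 (adjusted p = 0.0652), and Trp53 the largest negative one, -1.17 ± 0.28 (adjusted p = 0.0994). The other 2 were Sesn1, at 0.63 ± 0.20 (0.144), and Btg2, at -0.67 ± 0.23 (0.164). The Trp53inp1 change is that of its brighter probe, and the mean of its probes gave 0.78 (adjusted p = 0.0701, limma). Single arrays of day -2 weighed on the estimates: Trp53 was at -1.59 without the WT array and -0.75 without the sh8 array, and Btg2 at -0.35 and -1.0. Sesn1 was at 0.87 without the WT array of day 0 and 0.39 without the sh8 array.

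With normexp background correction 3482 of all genes (13.2%) passed limma's test at this step, among them Trp53 (adjusted p = 0.0452) and Trp53inp1 (0.0217). The change of Trp53 was then smaller, at -0.85. With only probes well above background on all 8 arrays 1672 of the 19780 genes then tested passed (8.45%). Among them was Trp53inp1 (0.0271) but not Trp53 (0.0518). The estimates of the remaining genes were 0.61 for Gadd45a, 0.34 for Sesn2, 0.23 for Bax, 0.21 for Mdm2 and 0.20 for Ccng1. The sign for Mdm2 turned to -0.12 with quantile normalization.

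From day 0 to day +2, the first days in the hormone mix, 0 of the 9 genes passed limma's adjusted test, beside 11.9% of all genes (8.99% higher and 2.91% lower). Only Ccng1 had an unadjusted p under 0.05, beside 31.7% of all genes, with a change of -0.64 ± 0.23 (adjusted p = 0.138). Sesn1 changed by 0.47 (0.183), Btg2 by -0.37 (0.328) and Mdm2 by -0.28 (0.217). With an array of day 0 left out, Sesn1 was at 0.22 (WT) or 0.71 (sh8) and Btg2 at -0.61 (WT) or -0.13 (sh8). The estimates for the other 5 genes lay between -0.21 and 0.23. The same sign in both lines was seen in 8 of 9 genes, beside 71.1% of all genes.

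Transcripts of another tissue moved with this step and with the scan. Of 10 lung epithelium markers, 4 to 6 were well above background on the arrays of the first scan and 10 of 10 on those of the second. The median log2 level of the list was -6.21 to -5.25 on the first scan and -0.12 to 0.77 on the second. Its summed linear level was 6.91 to 10.6 before and 17.3 to 23.3 after. Most of the sum before came from Lamp3, the brightest of the list on every array, at 2.65 to 3.35 on the first scan. At day +2 against day 0, 7 of the 10 passed as higher, where 8.99% of all genes did. Sftpc, a surfactant gene, Napsa and Slc34a2 were not well above background on any array of the first scan. These 3 were tested only because they were bright in the second, which favoured a rise in advance. Sftpb and Ager, well above background in the first scan only at WT day 0, likewise met the filter (at least 2 arrays) only through the second. The count of 7 and the medians of the list are therefore descriptions and no test of it. The size of the rise of Sftpc, Napsa and Slc34a2 is not given. Of the macrophage markers, Lyz2 and Tyrobp were also not well above background on the first scan. The part of these transcripts in the day +2 values was not tested.

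From day +2 to day +4, 0 of the 9 genes and 0 of all 26464 genes passed limma's adjusted test (0%), and 0 of the 9 had an unadjusted p under 0.05, beside 1441 of all genes (5.45%). Sesn2 had the largest estimate, 0.42 (adjusted p = 0.838), followed by Bax at 0.36 and Gadd45a at 0.33. The same sign in both lines was seen in 6 of 9 genes, beside 64.1% of all genes.

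**Figure D3:**
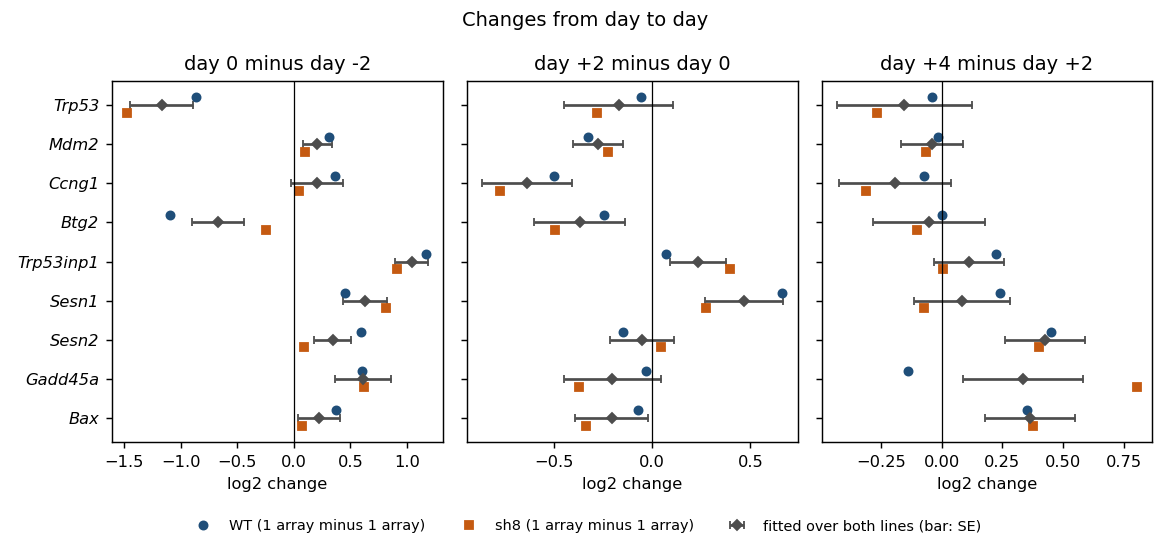
Log2 change (horizontal axis, own scale in each panel) of the 9 genes (vertical axis) over the 3 steps between days. Circles (WT) and squares (sh8) are 1 array minus another and diamonds the limma estimate over both lines with its standard error. The estimates farthest from 0 are those of Trp53 (-1.17) and the brighter probe of Trp53inp1 (1.04) at day 0 minus day -2.

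The third question was whether the difference between the lines changed once the hormones had been given. Days +2 and +4 are also the second scan, so a change with the hormones cannot be told apart from one with the scan. In the interaction of line and period (days +2 and +4 against days -2 and 0), which leaves 2 residual degrees of freedom, 0 of the 9 genes passed limma's adjusted test, and 0 of all genes did (0%). At an unadjusted p under 0.05 there were 0 of the 9 and 5260 of all genes (19.9%). Trp53 had the most negative estimate, with a sh8 minus WT difference of 0.14 before and -0.51 after, a change of -0.64 ± 0.27 (adjusted p = 0.302) that became -0.95 without either array of day 0 and -0.34 without either of day -2. Ccng1 went from 0.32 to -0.23, a change of -0.55 ± 0.20 (0.258), and Bax from -0.27 to -0.67, a change of -0.40 ± 0.18 (0.313). Sesn1 changed by -0.36 (0.424). Btg2, which was higher in sh8 in both periods, changed by 0.12 with a 95% interval from -0.84 to 1.09. With normexp background correction 1294 of all genes (4.89%) passed this test, and with the filter at all 8 arrays 1115 of 19780 did (5.64%).

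The wider pathway was described with 3 lists of genes: other known p53 targets, regulators of p53, and paralogs of the 9 genes. Of 35 other targets 33 were tested. Pmaip1 and Rprm have probes, but these were well above background on only 1 array each and were filtered out. Between sh8 and WT 5 of the 33 were higher, 5 lower and 23 did not pass, with a median of -0.05. Of 24 regulators 2 were higher and 6 lower, with a median of 0.03, and of 14 paralogs 2 were higher and 3 lower, with a median of -0.03. The share called was 30.3%, 33.3% and 35.7% for the 3 lists in that order, beside the 27.1% of all genes given above.

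Among the targets the lowest p belonged to genes that were lower in sh8. Gdf15, a secreted stress cytokine of the TGF-beta superfamily, had log2 levels of -0.40, -1.98, -1.27 and -1.30 in WT cells at days -2, 0, +2 and +4. In sh8 cells they were -3.00, -3.89, -3.32 and -3.15. Every sh8 array lay below every WT array, and the difference was -2.10 ± 0.16, or 4.29-fold lower (adjusted p = 0.00865, limma).

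Tigar, which lowers glycolytic flux by breaking down fructose-2,6-bisphosphate, was at 0.35, 0.58, 0.84 and 0.87 in WT cells. In sh8 cells it was at -0.96, -1.06, -0.89 and -0.55, and the ranges did not overlap. The difference was -1.52 ± 0.11 (adjusted p = 0.00865, limma), and its second probe gave -1.72. Dcxr, a carbonyl reductase, differed by -1.45 ± 0.14 (adjusted p = 0.0105).

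The regulators with the lowest p were also lower in sh8. Cop1, an E3 ligase for p53, was at 3.18, 3.47, 3.59 and 3.70 in WT cells and at 2.49, 2.68, 2.77 and 3.04 in sh8 cells, a difference of -0.74 ± 0.088 (adjusted p = 0.0133, limma). Of its other probes, the next brightest gave -0.66 and the dimmest 0.25. Sirt1, a deacetylase that acts on p53, differed by -0.68 ± 0.099 (0.0170), and Trp53bp2, a p53-binding protein of the ASPP family, by -0.59 ± 0.089 (0.0176).

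Of the paralogs, Btg3, in the same antiproliferative family as Btg2, was lower in sh8 where Btg2 was higher. Its log2 level was 2.59, 2.54, 2.78 and 2.74 in WT cells and 1.49, 1.34, 1.79 and 2.01 in sh8 cells, a difference of -1.0 ± 0.12 (adjusted p = 0.0128, limma). Ccng2, the second G-type cyclin, was lower by -0.64 ± 0.14 (0.0346), a call that was lost with quantile normalization (0.0569). Gadd45g was higher by 0.65 ± 0.15 (0.0347), whereas Gadd45a was at -0.29 and did not pass.

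These list genes share 1 limit. Without day 0, day +2 or day +4 none of Gdf15, Tigar, Dcxr, Cop1, Sirt1, Trp53bp2, Btg3, Ccng2 and Gadd45g passed the adjusted test (for Gdf15 the adjusted p was then 0.0528 to 0.0587), and none passed on the first scan alone (0.120 for Gdf15). The direction was the same in each of those fits.

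**Figure D4:**
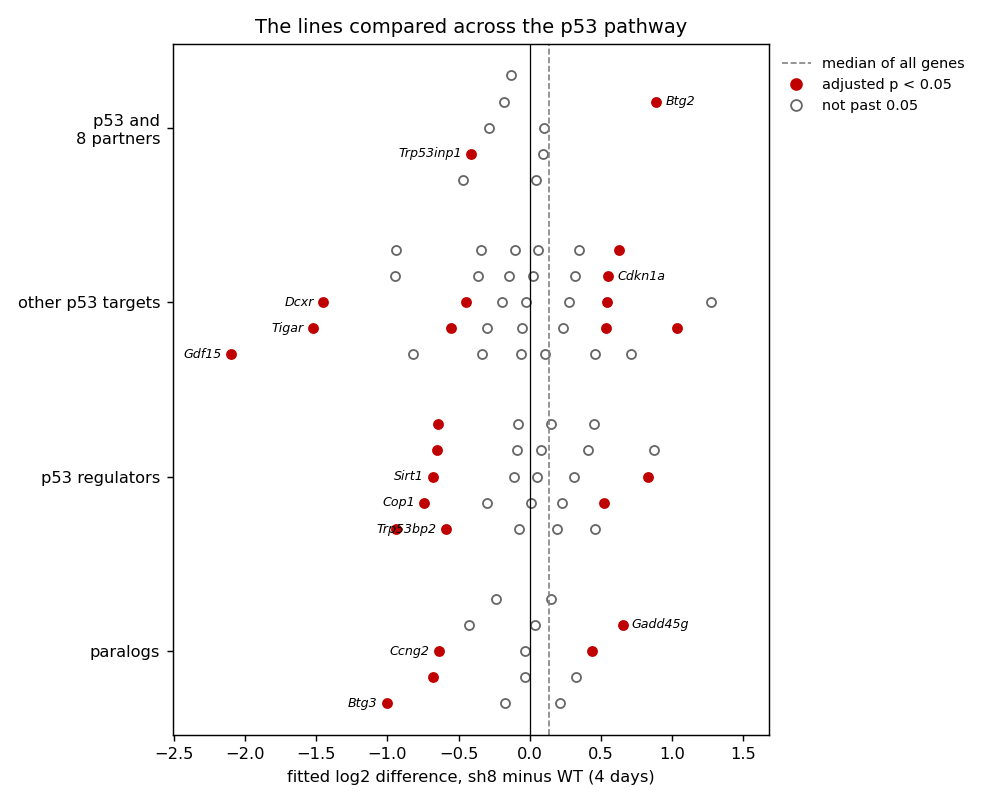
Difference between sh8 and WT (horizontal axis, log2) of every tested gene in 4 groups (rows): the 9 genes, 33 other p53 targets, 24 p53 regulators and 14 paralogs, 1 point per gene, spread vertically for legibility. Filled points passed the adjusted test and the dashed line is the median of all genes (0.13). Gdf15 at -2.10, Tigar at -1.52 and Dcxr at -1.45 are the called targets farthest below 0, and Btg2 at 0.89 is the called gene farthest above 0 among the 9.

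At day +2 against day 0, 3 of the 33 other targets rose and 4 fell, beside 8.99% and 2.91% of all genes. Ppm1d, the Wip1 phosphatase that switches p53 signalling off, rose by 1.25 (adjusted p = 0.0293, limma), while Abhd4 changed by -1.04 (0.0270) and Polk, a DNA polymerase that bypasses lesions, by -0.81 (0.0299). Of the 14 paralogs 1 rose and 1 fell, beside the same shares: Tob2, another BTG/TOB protein, by 1.55 (0.0206), and Gadd45b by -0.90 (0.0321). These 5 calls were lost in turn without either array of day 0, day +2 or day +4 (adjusted p from 0.0570 for Tob2 to 0.170 for Polk and Gadd45b), and Polk also without either array of day -2 (0.0523) and with the mean of its probes (-0.55, adjusted p = 0.0657). Calls over all genes at this step went from 3149 to 0 without the sh8 array of day +2. None of the 24 regulators passed, with 6 at an unadjusted p under 0.05. At the other 2 steps and in the interaction, none of the list genes passed, and the unadjusted counts of the targets were 15 of 33 at day 0, 1 of 33 at day +4 and 8 of 33 in the interaction, beside 25.4%, 5.45% and 19.9% of all genes.

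Across the 8 arrays the profile of Trp53 ran with those of Ccng1 (Pearson r = 0.58) and Btg2 (0.47). It ran opposite to those of Trp53inp1 (-0.81), Sesn1 (-0.81), Sesn2 (-0.69) and Gadd45a (-0.67). Trp53inp1 and Sesn1 ran together (0.90), as did Mdm2 and Ccng1 (0.83), and Btg2 ran opposite to Trp53inp1 (-0.88). Trp53 and Mdm2 had an r of 0.15. The arrays share day, scan and line, so these values are descriptions with no p.

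The named genes whose profiles were most like those of 8 of the 9 genes were taken from 13782 genes well above background on all 8 arrays, by Pearson r over the 8 arrays. For Trp53 they were Nacc1 (r = 0.993) and Kmt5a (0.991), and for Trp53inp1 they were Polr3gl (0.996) and Rasl11b (0.994). For Bax they were Chchd2 (0.988) and Slx (0.982). Top3b and Zfp507 came nearest to Ccng1 (0.978 and 0.969), Map3k15 and Hspb11 to Sesn1 (0.978 and 0.977), and Krt10 and Ilrun to Sesn2 (0.968 and 0.961). Mtx3 and Tmco6 came nearest to Mdm2 (0.967 and 0.962), and Cdkn2b and 2610301B20Rik to Gadd45a (0.952 and 0.948). Each pair was picked as the highest of 13782 correlations over only 8 arrays that share day, scan and line. Such a pick favours high values in advance, so these are descriptions with no p and no evidence of shared control.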

How the data were processed

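RNA was extracted with TRIzol and 1 µg was labelled with Cy3, per the labels' protocols. The deposited scanner files hold intensity per spot from Agilent Feature Extraction 11.0.1.1, per the submitters' processing notes. The series' design text names Affymetrix arrays, but the files are Agilent's. The authors also deposited a log2 value table with a median of 6.38 in every column, which correlated with the matching array at r = 0.994 to 1.00. Its making is not given in these sources, and it served as an alternative.

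Control spots (1377 of 44397) and 46 outlier-flagged probes were left out, and repeat spots averaged, which left 27207 probes with a symbol through RefSeq accessions (GRCm38.p6 table, used for names and promoter sequence) and 12176 without. Values are log2 processed intensity minus the array's 75th percentile. Probes well above background on at least 2 arrays were kept, with the brightest probe per gene. limma 3.58.1 (lmFit, eBayes) in R 4.3.3 fitted day and line over 8 arrays, then an interaction. The line comparison was also run on simulated data with independent noise for each gene and array. That run cannot speak to the lack of replicates or to the scan. Alternatives were quantile normalization, normexp (offset 50) on the median signals, the authors' values, other filters and probe rules, the scan, and arrays left out. The text names the 9 genes and Cdkn1a, up to 3 genes with the lowest p past the threshold per list and comparison, defining tissue markers, and the 2 most like genes of each, except those of Btg2, which are not reported here. The members and lists were chosen with earlier results of these data known.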

Additional observations from a re-analysis of the deposited data

Results flagged for a closer look

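Ccng1 was singled out because the difference between the lines had opposite signs before and after induction on every day. The sh8 array was higher at days -2 and 0 and lower at days +2 and +4, and the mean difference went from 0.32 to -0.23, a change of -0.55. The interaction test did not pass (limma, adjusted p = 0.258, unadjusted p = 0.0534), and the period after induction is also the second scan, so the 2 cannot be told apart.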

How the results depend on the processing

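No paired analysis was possible because every label gives replicate 1, and the day is already the block. Leaving out either array of a day gives the same line difference as leaving out that day. Between sh8 and WT, calls over all genes fell to 0 on the first scan alone and ranged from 0 to 4213 with 1 array left out. The 9 genes then gave 0 calls on the first scan alone and 0 to 1 with an array left out, and 1 call (Btg2) with quantile normalization, the authors' values, no filter, the mean of a gene's probes, the scan as block and the second scan alone. Signs turned for Trp53 (0.14) and Sesn1 (0.050) on the first scan alone, and for Ccng1 with normexp (-0.033), on the second scan alone (-0.23) and with arrays left out (-0.10 to 0.17).

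Between days, calls over the genes tested at day 0 against day -2 were 3482 with normexp (13.2%) and 10 with the authors' values. With the filter at all 8 arrays they were 1672 of 19780 (8.45%). Of these calls, 2 (normexp) and 1 (filter) were among the 9 genes. Mdm2 turned at this step to -0.12 with quantile normalization and -0.11 with the authors' values. With an array left out, Ccng1 there ran from -0.086 to 0.49 and Bax from -0.0076 to 0.46. At day +2 against day 0, 1953 genes passed with quantile normalization, 1963 with the authors' values and 0 to 2505 with an array left out, where Sesn2 ran from -0.19 to 0.088 and Gadd45a from -0.47 to 0.063. Cdkn1a went there from -0.22 (adjusted p = 0.422) to -0.90 (0.0399) with the mean of its probes. At day +4 against day +2, 1 gene passed with quantile normalization and 1 with the authors' values. Mdm2 turned to 0.0088 with normexp, and Cdkn1a to -0.021 with quantile normalization, -0.0062 with normexp, -0.021 with the authors' values and -0.10 with the mean of its probes. With an array left out at that step, the ranges were -0.44 to 0.14 for Trp53, -0.46 to 0.073 for Ccng1, -0.13 to 0.025 for Btg2, -0.14 to 0.31 for Sesn1, -0.026 to 0.69 for Gadd45a and -0.099 to 0.12 for Cdkn1a. In the interaction, 1294 genes passed with normexp and 1115 with the filter at all 8 arrays, and with an array left out Mdm2 ran from -0.14 to 0.073, Btg2 from -0.30 to 0.55, Trp53inp1 from -0.042 to 0.22, Sesn2 from -0.33 to 0.17 and Gadd45a from -0.33 to 0.61. The cause was not tested, apart from the fewer arrays or genes that a setting leaves. The normexp setting on median signals was chosen after seeing the data. All probes of the 9 genes were well above background on every array. The filter at all 8 arrays left their estimates as they were, and calls among them changed with the set of genes tested. The background step changed both estimates and calls.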
